A study of Danio rerio with 48 samples.

Results

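The comparison of low chromium with control asked which transcripts of whole adult zebrafish differ after 24 h at the lowest chromium concentration of the series. It holds 8 of the 48 arrays, chosen by their labels: the 4 arrays titled low chromium, at a measured 56.5 mg/L, and the 4 shared control arrays, at 0 mg/L, whose chemical group is given as chromium. All fish were adults of 6 to 9 months, kept at 25 °C in flow-through glass aquaria, and the controls received no toxicant. Strain and sex are not given in the labels, nor is the salt or oxidation state of the chromium. RNA of whole fish was pooled before labelling with the dye Cy3, and the labels state neither the fish per pool nor which aquarium a replicate came from. P-values therefore cover only array-to-array variation among these pools, which may be technical. By their titles, the 4 control pools were each also run as an array of the nickel set, called nickel-labelled here. The other groups used here are mid and high chromium, at 69.9 and 80.6 mg/L, low nickel at 42.4 mg/L and low cobalt at 39.7 mg/L, with 4 arrays each, and cobalt has control arrays of its own at 0 mg/L.

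As background, dissolved metals reach a fish mostly through the gill and the gut. Chromium in its hexavalent form enters cells through anion transporters and is reduced inside them, which is known to yield reactive oxygen species and DNA adducts, and fish cells answer many metals with metallothionein, glutathione and heat shock responses. Whether any such gene is among the probes below cannot be said here. Probes carry Ensembl or Vega transcript IDs, the reference tables used here list genes by other identifiers, and 0 of 21903 transcript IDs could be matched to a gene. For the same reason the whole-organism label was not checked against tissue markers. Transcripts are therefore described by ID, level and response, and only 4 IDs are named, by a rule given with the processing.

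Values are log2 intensities, on which 1 unit is a doubling. Of the 43714 probes, between 66.7% and 68.3% lay above a log2 intensity of 5, taken as the background limit, on each of the 8 arrays. The number of arrays limits the precision. Low arrays correlated with each other at 0.991 to 0.994 across probes and control arrays at 0.989 to 0.992, whereas low and control arrays correlated at 0.971 to 0.978. The median within-group SD, over 19345 probes with a mean above log2 6, was 0.18 in low and 0.19 in control arrays.

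The largest differences at low chromium were decreases: the largest decrease was -9.01 and the largest increase 3.46 on the log2 scale. The probe with the largest decrease under the naming rule, ENSDART00000018409_2, read 14.47, 14.37, 14.61 and 14.69 on the control arrays and 6.53, 5.08, 5.67 and 4.82 on the low arrays. All low arrays lay far below all controls, and the last of them lay below the background limit. The log2 difference was -9.01 ± 1.06 (SE, limma adjusted p 3.57e-05), where the SE comes from all 4 chromium-labelled groups and so includes high replicate 3 at 11.28. With that low array set to the limit the level was lower by at least 8.96 log2 units, or 499-fold. In whole fish, fewer cells of a type and less RNA per cell cannot be told apart.

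ENSDART00000067818_2 read 13.68, 13.70, 13.84 and 13.89 in control and 5.56, 5.12, 5.34 and 5.22 at low chromium. Its low arrays were all just above the background limit and close together, with an SD of 0.19 against 0.10 in control (n = 4 each). The log2 difference was -8.47 ± 0.77 (SE, limma adjusted p 3.35e-06), a 354-fold lower level. The second probe of each of these transcripts was lower too, with 2 of its 4 low arrays at or below the background limit. With those arrays set to the limit, the level was lower by at least 8.39 log2 units for the former and 8.47 for the latter, and limma gave the measured differences adjusted p 3.08e-05 and 7.31e-06.

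Among increases, ENSDART00000105448_x_1 read 9.07, 7.87, 6.52 and 7.64 in control and 11.33, 11.82, 10.38 and 11.39 at low chromium. The groups did not overlap, although the control arrays were widely spread. The log2 difference was 3.45 ± 0.48 (SE, limma adjusted p 0.000172), a 10.9-fold higher level. ENSDART00000075235_1 read 8.90, 7.93, 7.79 and 8.38 in control and 11.62, 11.24, 11.81 and 11.97 at low chromium, again without overlap. Its log2 difference was 3.41 ± 0.28 (SE, limma adjusted p 1.32e-06), a 10.6-fold higher level. The second probes of these transcripts rose by 2.90 and 3.25, with adjusted p 0.000689 and 3.27e-06.

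**Figure D1:**
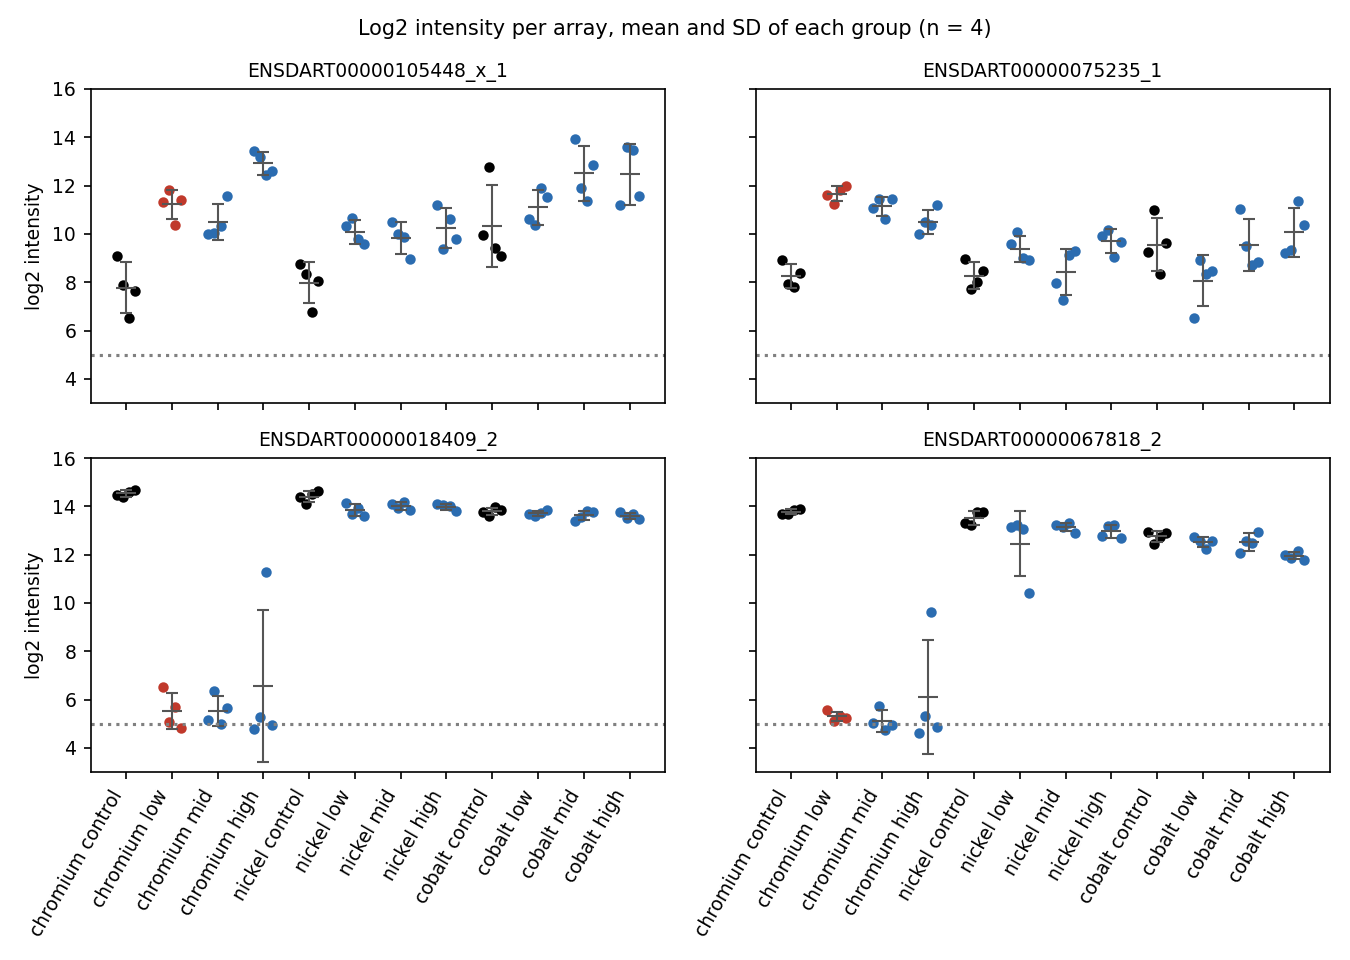
Log2 intensity of the 4 named probes on each array (points), with the mean and SD of each group (n = 4), for the 12 groups of the series; low chromium is red, controls black, other exposures blue, and the dotted line marks log2 5. Chromium and nickel controls are arrays of the same pools. Both lower panels show chromium-exposed arrays near log2 5, except high replicate 3 at 11.28 and 9.62, while nickel and cobalt arrays stay above 10.

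Over all probes, 4927 passed the limma threshold of 0.05 after adjustment, or 11.3% of those tested, with 2484 higher and 2443 lower (5.68% and 5.59%). The higher calls came from 1753 transcripts and the lower ones from 1535. The median log2 difference was 0.55 among higher calls, 1.47-fold, and -0.80 among lower calls, 1.75-fold, against 0.02 over all probes. When arrays were scaled to 6 control rows taken as spike-ins, 2598 probes passed, 1134 higher and 1464 lower.

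The balance of directions tipped with size. At least 2-fold differences were reached by 248 higher and 949 lower calls (0.567% and 2.17% of all probes), and at least 4-fold differences by 37 higher and 247 lower calls, or 0.0846% and 0.565%. Past 8-fold there were 10 higher and 81 lower calls. At least 16-fold was reached by 36 lower calls of 22 transcripts and by 0 higher calls, and 18 lower calls of 11 transcripts reached 32-fold. With the nickel-labelled arrays of the control pools in place of the chromium-labelled ones, the higher calls of at least 2-fold and 4-fold numbered 423 and 64.

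**Figure D2:**
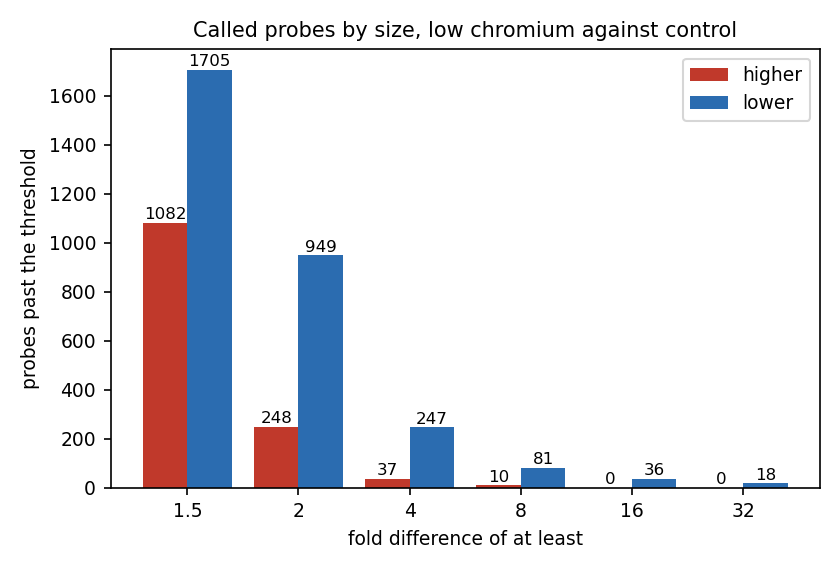
Number of probes past the limma threshold at low chromium (vertical axis, probes) that differ by at least the fold on the horizontal axis; red bars are higher and blue bars lower than control. Lower calls outnumber higher ones at every size shown, from 1082 higher and 1705 lower at 1.5-fold to 0 and 18 at 32-fold.

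Groups of arrays were apart for most calls. Of the higher calls, 2220 (89.4%) had all 4 low arrays above all 4 control arrays, and 2269 lower calls (92.9%) had all low arrays below. Over all probes, called or not, 8.34% were apart upward and 6.99% downward. All 247 probes lowered at least 4-fold and all 37 raised at least 4-fold were without overlap. These counts are a description, since the calls were picked by a test on the same arrays and the 4-fold sets by size as well.

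The affected transcripts differed in how bright they were in control fish. Among 14249 probes with a control mean up to log2 5, 0.386% were called higher and 0.0842% lower. Calls were most frequent among the 2360 probes between 10 and 12, where 16.4% were higher and 17.7% lower. In the brightest class, 358 probes above 14, 5.87% were higher and 9.50% lower. Decreases of at least 2-fold took 8.94% of the 738 probes between 12 and 14, against 1.76% for increases. Above 14, 13 probes fell at least 2-fold and 6 at least 4-fold, while 0 rose that far. A probe close to the background limit in control can fall little before it reaches that limit, so the dim classes bound decreases more than increases. Among lower calls the highest control mean was 15.90. Whether the upper end of the intensity scale bounded increases in the brightest class was not tested.

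**Figure D3:**
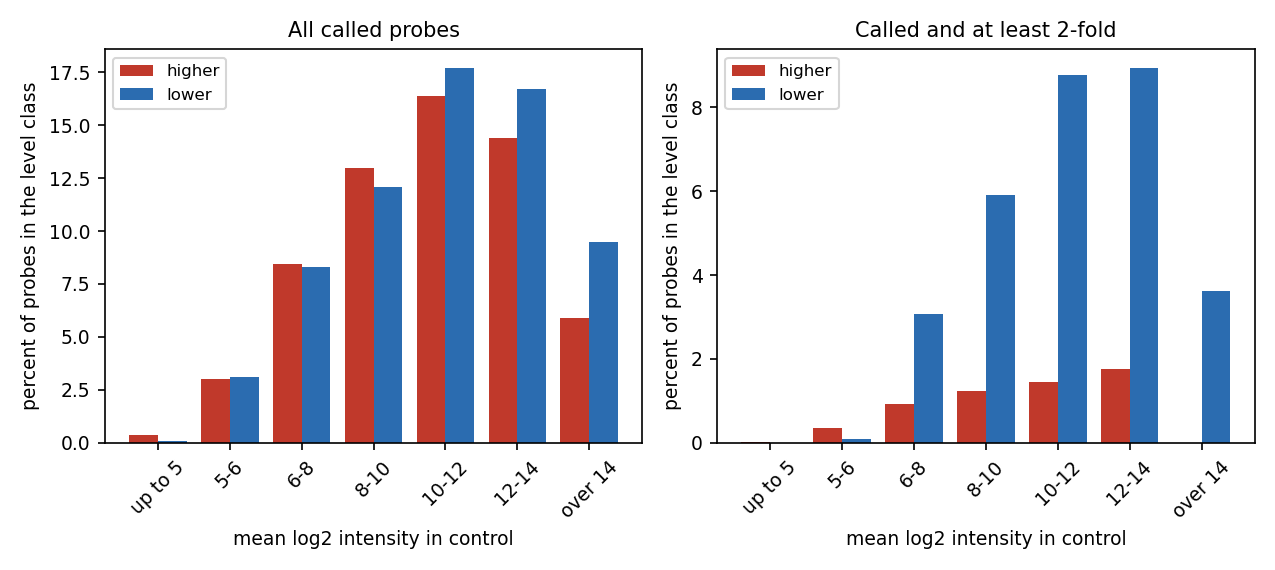
Percent of the probes in each class of control level (horizontal axis, mean log2 intensity of 4 control arrays) that were called higher (red) or lower (blue) at low chromium, for all calls on the left and for calls of at least 2-fold on the right. On the left, calls peak between 10 and 12. On the right they peak between 12 and 14, and the blue bars exceed the red ones in every class above 6.

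The 247 probes lowered at least 4-fold belong to 149 transcripts and ran from 6.74 to 15.59 in control. Their median level was 9.53 in control and 6.54 at low chromium. In linear intensity these probes, 0.565% of all, held 2.00%, 2.15%, 2.29% and 2.17% of the summed intensity of the control arrays and 0.191%, 0.166%, 0.184% and 0.195% of that of the low arrays. Low arrays thus carried a share below 0.2% each. The 949 probes lowered at least 2-fold held 5.43% ± 0.193 in control and 1.46% ± 0.102 at low chromium (SD, n = 4 each). The 248 probes raised at least 2-fold went from 0.654% ± 0.0296 to 1.78% ± 0.209 (SD, n = 4 each). These sets were picked on the same arrays, so the shares are a description with no test.

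**Figure D4:**
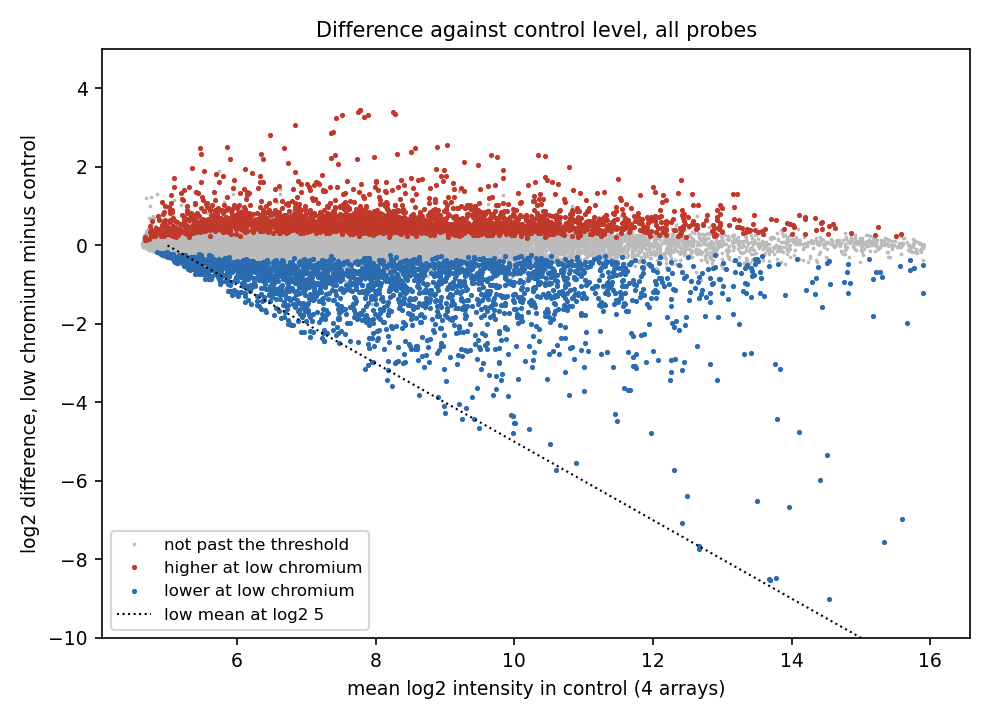
Log2 difference between low chromium and control (vertical axis) against the mean log2 intensity of the 4 control arrays (horizontal axis) for all 43714 probes; red and blue mark calls, grey the rest, and on the dotted line the low mean is log2 5. Decreases reach -9.01 at control levels above 12, some along the dotted line, and increases stop at 3.46.

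Loss to background was seen for 121 probes of 99 transcripts, which were above log2 5 on all 4 control arrays and at or below it on all 4 low arrays, of 26475 probes above it on all controls. Most had been dim, with a median control mean of 5.49. Of these, 36 had a control mean above 6, 5 above 8 and 1 above 10, the brightest at 10.60. The reverse held for 50 probes of 48 transcripts, of 11076 probes at or below the limit on all controls. Their low mean reached at most 5.77. Relative to these starting sets, loss and appearance were about equally frequent. The limma test passed 111 of the lost and 16 of the appearing probes, where 5.59% of all probes were called lower and 5.68% higher. Both sets were picked for groups apart on the same arrays, so these counts are a description. The same counts were 124 lost and 40 appearing at mid chromium, and 71 lost and 90 appearing at high chromium, against the same control arrays. Low nickel had 23 lost and 33 appearing probes, and low cobalt 36 lost and 33 appearing. Of the lost probes, 0 at low nickel and 1 at low cobalt lay above log2 6 in their own controls.

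Where both probes of a transcript were called, they agreed in direction. Of 21811 transcripts with 2 probes, 3279 had at least 1 call at low chromium: 731 had both probes called higher, 908 both lower, and 0 had calls in opposite directions. In the remaining 1640 only 1 probe passed, and in 1487 of them the second probe had the same sign. Over all transcripts with 2 probes, called or not, the differences of both probes correlated at 0.878. The share with equal signs over all of them was not counted, so these counts are a description. Of the 149 transcripts with a probe lowered at least 4-fold, 145 had both probes called lower and 98 had both past 4-fold. All 21 transcripts with a probe raised at least 4-fold had both probes called higher.

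Mid and high chromium were set beside low chromium to see whether the response differed by concentration. These comparisons use the same control arrays, so their values are given side by side. The median log2 difference of the 949 probes lowered at least 2-fold at low chromium was -1.49 in the low group, against -1.47 for mid and -1.57 for high. That of the 248 raised probes was 1.36, 1.43 and 1.65. Both sets were picked by their size at low chromium, so these medians are a description and do not compare the doses evenly. Over all probes, 11.8% were called at mid chromium (6.32% higher and 5.52% lower) and 16.9% at high chromium (9.2% higher and 7.74% lower). On single arrays the lowered probes had medians of -1.47, -1.60, -1.50 and -1.49 in the low group and -1.75, -1.57, -1.28 and -1.71 in the high group, where replicate 3 was the least lowered.

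Tested directly, 0 probes differed between mid and low chromium by limma at the adjusted threshold. Of the 43714 tested, 3001 had an unadjusted limma p under 0.05, against 9333 for low chromium against control. Chance alone gives a share of about 0.05 of the tested probes in each comparison. The count past the adjusted threshold was 1 without low replicate 1 and 0 in the other alternatives tried. Over all probes, 99.9% differed less than 2-fold between the groups. That share was 97.2% even between low chromium and control, so it says little by itself. ENSDART00000018409_2 had 1 array at or below the background limit in each of these groups. Its measured mid minus low difference was 0.006, with a 95% interval from -2.25 to 2.27, so no order of these levels is given. For ENSDART00000075235_1 the mid minus low difference was -0.51, with a 95% interval from -1.11 to 0.09.

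Between high and low chromium, 93 probes differed (0.213% of all), 29 higher and 64 lower at high, or 0.0663% and 0.146%. This count was unstable: it was 5, 41, 4 and 19 without low replicates 1, 2, 3 and 4, and 3, 99, 187 and 1 without high replicates 1, 2, 3 and 4. With spike-in scaling 58.4% of the calls were higher, against 31.2%. None of the 4 named probes was among the 93. ENSDART00000105448_x_1 was 1.70 ± 0.48 (SE) higher at high than at low chromium, with a limma adjusted p of 0.178. The other named increase, ENSDART00000075235_1, went the other way, at -1.15 ± 0.28 (SE) with a limma adjusted p of 0.115.

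Low nickel and low cobalt served to ask whether the low-chromium response differed from that to another metal. Concentrations were not matched. Over all probes, 9.64% were called at low nickel (5.03% higher and 4.61% lower) and 6.5% at low cobalt. A test of the difference between effects over all 48 arrays found 1091 probes (2.5%) whose response to low chromium and low nickel differed, 254 with the larger value in chromium (0.581%) and 837 with the smaller (1.91%). Of the 837, 684 were called lower at low chromium, while 161 were called higher and 192 lower at low nickel. Of the 254, 132 were called higher in chromium and 112 lower in nickel. Both sets were picked by the difference between these effects on the same arrays, so the counts are a description. The control arrays of both metals carry the same 4 pools, and with the pool as a random block 1574 probes differed, 30.9% with the larger value in chromium. Without that block the share was 23.3%, and spike-in scaling gave 646 probes and 8.05%.

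Against low cobalt, 2360 probes (5.4%) differed, 1067 with the larger value in chromium (2.44%) and 1293 with the smaller (2.96%). Of the 1293, 962 were called lower at low chromium and 296 higher at low cobalt. Of the 1067, 406 were called higher in chromium and 526 lower in cobalt. With spike-in scaling 1388 differed, 28.5% with the larger value in chromium against 45.2%. Probes called lower in chromium and smaller than in both other metals numbered 569, from 363 transcripts, with median log2 differences of -1.74 in chromium, -0.31 in nickel and -0.13 in cobalt. In the other direction there were 74 probes of 60 transcripts, with medians of 0.77, -0.10 and -0.12. These counts and medians describe sets picked by the same values.

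Because cobalt has separate controls, its calls could be compared with those of chromium. At low cobalt 3.7% of all probes were called higher and 2.79% lower. Probes called higher in both numbered 739, which is 29.8% of the chromium list and 45.6% of the cobalt list. Probes called lower in both numbered 295, or 12.1% and 24.2% of the lists. A further 71 probes were higher in chromium and lower in cobalt, or 2.86% of the higher chromium calls, near the 2.79% over all probes. The reverse held for 28, or 1.15% of the lower chromium calls, below the 3.7% over all probes. Among the 949 probes lowered at least 2-fold by chromium, 151 were called lower in cobalt (15.9%) and 17 higher. Among the 248 raised at least 2-fold, 87 were called higher (35.1%) and 18 lower (7.26%). More of both sets were called at low nickel, whose control arrays carry the chromium control pools and so are not separate. There 408 of the 949 were called lower (43.0%) and 7 higher, and 146 of the 248 higher (58.9%) and 0 lower. Over all probes, 4.61% were called lower and 5.03% higher at low nickel.

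**Figure D5:**
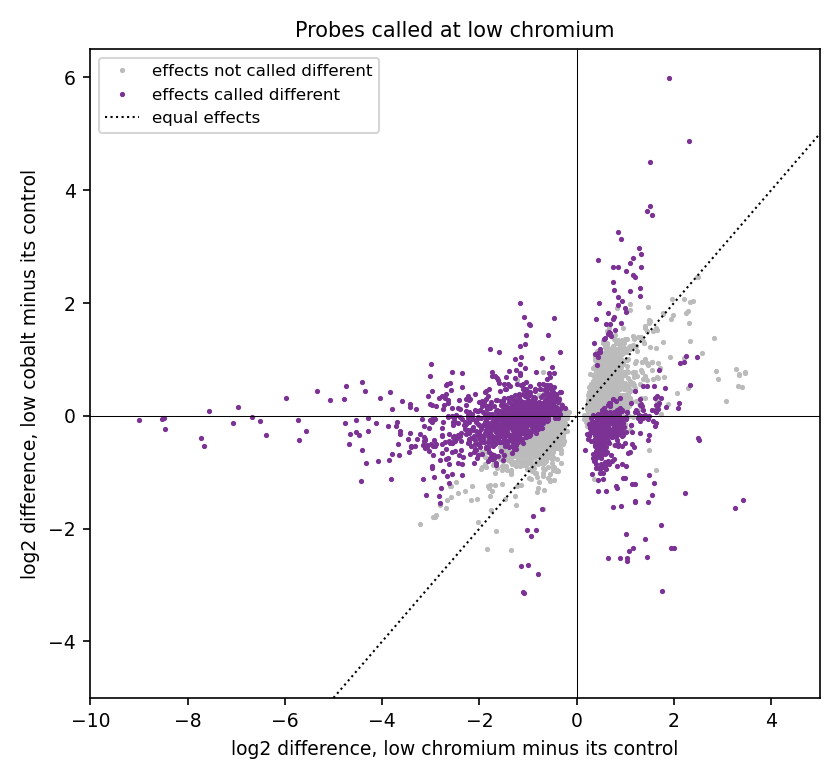
Log2 difference at low cobalt against its controls (vertical axis) and at low chromium against its controls (horizontal axis) for the 4927 probes called at low chromium; purple points passed the test of the difference between both effects, grey ones did not. The probes with the largest decreases in chromium lie near 0 on the cobalt axis, and increases spread to both sides of the dotted line of equal effects.

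The named decreases were far larger in chromium than in the other metals. The probes were named for their size at low chromium on these arrays, so the tests against other metals are not independent of that choice. ENSDART00000018409_2 fell from 14.41 ± 0.22 to 13.84 ± 0.23 at low nickel (SD, n = 4 each), a log2 difference of -0.56 with limma adjusted p 0.0101. It read 13.79 ± 0.14 in cobalt controls and 13.71 ± 0.11 at low cobalt. With the array below the limit set to it, the chromium effect exceeded that of nickel by at least 8.4 and that of cobalt by at least 8.88 log2 units, with adjusted p 3.12e-08 and 3.44e-09 for the measured differences. For ENSDART00000067818_2 the differences were -7.42 and -8.24, with adjusted p 1.93e-08 and 5.86e-10. Of the increases, ENSDART00000075235_1 had a cobalt difference of -1.49, adjusted p 0.283, and its chromium effect was larger by 4.90 ± 0.74 (SE), adjusted p 7.93e-06, while against nickel the difference of 2.3 did not pass, at 0.102. ENSDART00000105448_x_1 was 2.1 higher at low nickel, adjusted p 0.00812, and its chromium effect exceeded those of nickel and cobalt by 1.35 and 2.67, with adjusted p 0.691 and 0.0817. Its cobalt controls ran from 9.10 to 12.79, above all chromium-labelled controls.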

How the data were processed

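The authors deposited 1 table of log2 intensity values, a row per probe and a column per array. Per the labels' protocols, pooled RNA of whole fish was amplified and labelled with Cy3 by an Agilent one-colour kit. The sources used here do not give the authors' background correction, normalization or software. That values are log2 follows from their range. Groups came from the labels. The 61 control rows were left out of the tests. In 14 rows of dark control spots, 99.7% of values were no higher than log2 5.

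With R 4.3.3 and limma 3.58.1, lmFit and eBayes were run on the 16 chromium-labelled arrays with a coefficient for each of 4 groups, and on each other metal's arrays. Differences between metals came from all 48 arrays. Benjamini-Hochberg adjustment ran over 43714 probes, with a threshold of 0.05 and no fold limit. The fit was run on simulated data with independent normal noise, without array effects, shared pools or a background limit. That run checked the code and does not show how the fit behaves on the deposited values. Same-numbered low and control arrays correlated in their deviations at 0.231, 0.008, -0.018 and -0.015, so the numbers were not taken to pair arrays.

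A transcript is represented by its brightest probe. Without gene names the rule names 2 IDs per direction, those with the greatest log2 difference among calls whose groups do not overlap. The 34 gene lists drawn up were not used, as no probe could be named. The comparison, the lists and the background limit were chosen with earlier results of these data known.

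Alternatives were 2 filters on dim probes, quantile, median and spike-in scaling, the replicate number as a block, an intensity trend, array weights, fits of 8 or 48 arrays, the nickel-labelled control arrays or the mean of both, a 2-fold limit, a random block for control pools, and leave-one-out fits. For each named probe, the second probe of its transcript was tried as well.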

Additional observations from a re-analysis of the deposited data

Results flagged for a closer look

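The difference in response between low chromium and the other low doses passed the test at 1091 probes for nickel and 2360 for cobalt. It also passed for the named decreases: ENSDART00000018409_2 differed by -8.45 from nickel and -8.93 from cobalt, and ENSDART00000067818_2 by -7.42 and -8.24. ENSDART00000075235_1 differed from cobalt by 4.90. Its cobalt controls averaged 9.55 against 8.25 in chromium-labelled controls, and its cobalt difference of -1.49 did not pass. These probes were named for their size at low chromium on the same arrays, so their tests are not independent of the naming.

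By Dixon's criterion, 4 of 56 groups of 4 arrays held an array far from the other 3, where chance gives about 1 in 20. High chromium replicate 3 read 11.28 for ENSDART00000018409_2 and 9.62 for ENSDART00000067818_2, and low nickel replicate 4 read 10.42 for the latter, against 13.06 to 13.21 on the other 3. Control replicate 1 held 0.698% of its summed intensity in the probes raised at least 2-fold, against 0.633% to 0.643% on the other 3.

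A negative control row, outside the transcript probes, read 5.99 on low chromium replicate 1. On the other 47 arrays it read 4.67 to 4.75. Without that replicate, 4433 probes passed at low chromium against 4927. Leaving out low replicates 2, 3 and 4 in turn gave fewer, at 3911, 4212 and 4276.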

How the results depend on the processing

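The 4 named probes kept their direction and stayed past the threshold under all 22 alternatives tried for each. One of these took the second probe of the transcript in place of the named one. Another, the 2-fold limit, reused the main fit and could not change the result for these probes. All 4 were named for their size on these arrays, so their staying past the threshold is a description. By measured log2 difference, ENSDART00000018409_2 ran from -9.34 to -8.50 and ENSDART00000067818_2 from -8.55 to -8.20. ENSDART00000075235_1 ran from 3.25 to 3.63 and ENSDART00000105448_x_1 from 2.90 to 3.89. The ends -8.50, 3.25 and 2.90 are values of the second probes. For the named probes themselves, those ends were -8.77, 3.26 and 3.03. Leaving out single low or control arrays gave 3911 to 4435 calls, 1852 to 2193 higher and 2059 to 2276 lower, and 913 to 962 decreases of at least 2-fold. Spike-in scaling gave 2598 calls, 1134 higher and 1464 lower, with 2520 calls shared with the 4927. A 2-fold limit left 1197, 248 higher and 949 lower, so that 20.7% were higher. Nickel-labelled controls gave 6206 calls, sharing 3634 in the same direction, with 4 called in opposite directions; 423 increases then reached 2-fold and 64 reached 4-fold. All 247 decreases and 37 increases of at least 4-fold passed with those controls too. Of calls of any size, 66.8% of the higher and 80.8% of the lower ones were kept with them. The replicate block gave 4903 calls, sharing 4499, and in the comparison of high with low chromium 16 against 93, 18.8% higher. Leaving out the dimmest 25% of probes gave 161 there, 43.5% higher, and leaving out single arrays 1 to 187. For mid against low chromium leaving out single arrays gave 0 to 1. With spike-in scaling 646 probes differed from nickel and 1388 from cobalt. The cause of these shifts was not tested. Signal near background limits what can be seen: 4031 probes lay at or below log2 5 on all 48 arrays.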

Other observations

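The chromium-labelled and nickel-labelled control arrays carry the same 4 pools and still differed at 496 probes (1.13%) with the pool as a block, 421 of them higher on the chromium-labelled arrays, and at 177 without the block. None of the 4 named probes was among them.

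Of the 2033 probes with Vega transcript IDs, 99 passed at low chromium, or 4.87%, with 67 of them lower, against 11.6% of the 41681 probes with Ensembl IDs. No test of this difference was made, and the levels of the probes were not matched.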
